A study of Rattus norvegicus with 40 samples.

Results

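The 5 transcripts described here were listed by their Ensembl identifiers out of the 31715 transcripts quantified in each sample: ENSRNOT00000086303.1, ENSRNOT00000020182.5, ENSRNOT00000082774.1, ENSRNOT00000015763.6 and ENSRNOT00000079424.1. They were selected on the p-value of the genotype contrast in the hippocampus in an earlier look at these data. In the fit used here they stood at ranks 3, 4, 8, 10 and 12 by p-value among the 20646 transcripts tested in that tissue. Their hippocampal difference is therefore selected, and it is described below with nothing concluded from a test of it. Their label speaks of the largest shifts, but other tested transcripts had larger ones. By absolute log2 fold change, ENSRNOT00000020182.5 stood at percentile 99.6 of the tested transcripts, ENSRNOT00000079424.1 at 97.7 and ENSRNOT00000015763.6 at 97.3. ENSRNOT00000086303.1 stood at 93.0 and ENSRNOT00000082774.1 at 89.0. These percentiles belong to the contrast that chose the transcripts and do not support the label. ENSRNOT00000020182.5 moreover passed the count filter through its heterozygotes alone.

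All animals carried the spontaneously hypertensive rat background (SHR/OlaIpcv), an inbred model of high blood pressure and metabolic disturbance. Wild-type rats, with both copies of Tti2 intact, were compared with SHR-Tti2+/- rats, in which a zinc finger nuclease had left a short frameshift deletion in the first exon of one copy, so that the knockout was constitutive and present in every tissue. Hippocampus, liver, soleus muscle and peritoneal fat (named perirenal fat in the methods of the study) were sampled from 6 rats of each genotype, and for each tissue the 5 RNA samples of best integrity per genotype were sequenced, giving 40 poly(A)-selected libraries. The labels name no agent given to either group, and per the methods rats were under ketamine anaesthesia when tissues were taken for RNA. The heterozygotes come from a line with this 1 allele, and the controls were littermates. The study describes its comparison of these genotypes as made in male rats. The sex and age of the sequenced animals were not given separately in the sources used here. A rat number within a genotype names 1 animal across tissues, whereas equal numbers in the 2 genotypes are different animals.

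Tti2 binds Telo2 and Tti1 in the Triple T complex, a co-chaperone of the Hsp90 system that helps newly made phosphatidylinositol 3-kinase-related kinases to fold and assemble. These large kinases include mTOR, which couples nutrients to growth, ATM and ATR, which answer DNA damage, and SMG1, which acts in nonsense-mediated decay of mRNA. In the adult hippocampus, neural stem cells of the dentate gyrus keep producing granule neurons, a process sensitive to insulin and nutrient signals. The comparison asks which mRNAs differ in this tissue and in metabolic tissues when 1 copy of Tti2 is lost. The identifiers name single transcript models, the reads of a gene being divided among its models by a statistical estimate, and the files used here do not pair identifiers with gene names. The function of the 5 transcripts, the markers of each tissue and the level of Tti2 itself are for that reason not given.

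Estimated counts summed to between 19176393 and 32713126 per library. The hippocampus libraries held 19176393 to 23159304 except that of wild-type rat 2, which held 32713126 and stood farthest from the other libraries of that tissue, with a mean distance of 127 on the first principal components against 37.8 to 89.5 for the rest. The log2 fold changes and the correlations of the hippocampus are given below with and without it. In the shallowest hippocampus library 3 counts correspond to 0.156 counts per 1000000 reads (CPM). Over all tested transcripts the median genotype difference was close to 0 in every tissue.

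The models of the 5 transcripts were 3513 bases long for ENSRNOT00000086303.1, 1989 for ENSRNOT00000020182.5, 2506 for ENSRNOT00000082774.1, 2171 for ENSRNOT00000015763.6 and 2993 for ENSRNOT00000079424.1. Per length, in transcripts per 1000000 (TPM), they ranged from near the bottom to the upper middle of the transcripts tested in the hippocampus. ENSRNOT00000079424.1 (mean 21.7 TPM over 10 rats) and ENSRNOT00000086303.1 (18.6 TPM) lay at percentiles 69.3 and 65.5 of the tested transcripts. ENSRNOT00000015763.6 (9.68 TPM) lay at 50.1, ENSRNOT00000082774.1 (5.41 TPM) at 38.0, and ENSRNOT00000020182.5 (0.172 TPM) at 1.15. A whole-number estimate shows reads that were assigned without being split. Within a tolerance of 0.01 each of the 5 had a whole estimate in at most 1 of 10 hippocampus samples, as did 46.7% of 20189 tested transcripts of moderate count. The values of the 5 thus include some reads shared with other models in nearly every sample. This measure does not show how large the shared part was, and how those reads were divided was not tested.

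Within the hippocampus 4 transcripts were higher and 1 was lower in SHR-Tti2+/- rats, and for all 5 the values of the 2 genotypes did not overlap. Of all tested transcripts, 1.16% showed no overlap in either direction, 0.572% with higher and 0.591% with lower values in the heterozygotes. The criteria of the study (adjusted p below 0.1 with at least a 1.5-fold difference) were applied here with edgeR's quasi-likelihood test. They were met by 0 of the 5 and by 0.00484% of the tested transcripts. The study itself used the Wald test of the sleuth package and left out an outlying hippocampus sample, and its test was not rerun here. Because the rule used this contrast, nothing is read from either count. In bulk tissue, a change in the share of a cell type and a change in RNA per cell cannot be told apart.

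ENSRNOT00000086303.1 had the tightest of the increases. Its level in the wild-type hippocampus was 34.7, 32.5, 35.6, 26.6 and 32.1 CPM (rats 1, 2, 3, 5 and 6), and in SHR-Tti2+/- rats it was 45.0, 53.7, 48.4, 51.4 and 45.4 CPM (rats 1 to 5). The lowest heterozygote lay 1.26 times above the highest wild-type rat, and within each genotype the highest rat exceeded the lowest by 1.34 and 1.19 times. The means were 32.3 ± 3.53 and 48.8 ± 3.74 CPM (SD, n = 5 each), a ratio of 1.51 and a log2 fold change of 0.59 ± 0.084 (SE). Without wild-type rat 2 the log2 fold change was 0.59.

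ENSRNOT00000020182.5 had the highest ratio and the lowest level. Wild-type rats 1, 2, 3, 5 and 6 held 2.38, 3.22, 1.21, 2.29 and 2.28 estimated counts, and SHR-Tti2+/- rats 1 to 5 held 11.7, 9.95, 6.93, 5.17 and 7.15. In CPM the wild-type rats ranged from 0.0625 to 0.118 and the heterozygotes from 0.245 to 0.573, the nearest rats of the 2 genotypes being 2.08 times apart. The means were 0.0969 ± 0.0205 and 0.400 ± 0.127 CPM (SD, n = 5 each), and the log2 fold change was 2.16 ± 0.36 (SE), or 2.19 without wild-type rat 2. Summed over rats, 40.9 counts in heterozygotes stood against 11.4 in wild type, a depth-scaled ratio of 4.12. The transcript passed the filter of 5 counts in enough samples through the 5 heterozygotes alone, and 4 of the 5 wild-type values lay under the floor of 3 counts, so the size of the ratio is poorly determined.

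ENSRNOT00000082774.1 was the 1 transcript with lower values in the heterozygotes. Wild-type rats 1, 2, 3, 5 and 6 had 9.77, 11.3, 8.996, 10.2 and 9.67 CPM, and SHR-Tti2+/- rats 1 to 5 had 7.68, 6.42, 7.19, 7.42 and 8.02 CPM. The lowest wild-type rat was 1.12 times above the highest heterozygote. The means were 9.99 ± 0.867 and 7.35 ± 0.605 CPM (SD, n = 5 each), a ratio of 0.735 and a log2 fold change of -0.45 ± 0.090 (SE). The highest wild-type value was that of rat 2, and without this library the log2 fold change was -0.40. The ratio stayed under the study's limit of 1.5 whichever library was left out.

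ENSRNOT00000015763.6 had a mean 2.03 times the wild-type level in heterozygotes, with more spread than ENSRNOT00000086303.1 or ENSRNOT00000082774.1. Wild-type rats 1, 2, 3, 5 and 6 had 7.18, 9.81, 9.62, 10.1 and 5.14 CPM, and SHR-Tti2+/- rats 1 to 5 had 17.8, 13.9, 21.3, 19.4 and 12.4 CPM. Wild-type rat 6 was the lowest animal, and the lowest heterozygote, rat 5, lay 1.23 times above the highest wild-type rat. The means were 8.37 ± 2.14 and 16.9 ± 3.75 CPM (SD, n = 5 each), and the log2 fold change was 1.02 ± 0.21 (SE), or 1.08 without wild-type rat 2.

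ENSRNOT00000079424.1 had the narrowest gap between genotypes in spite of a ratio of 2.13. Wild-type rats 1, 2, 3, 5 and 6 had 34.5, 17.1, 31.4, 33.5 and 31.0 CPM, and SHR-Tti2+/- rats 1 to 5 had 63.6, 66.8, 35.3, 76.2 and 72.4 CPM. Heterozygous rat 3 stood at the wild-type level, 1.02 times above wild-type rat 1, while the other 4 heterozygotes had 63.6 CPM or more. Wild-type rat 2, the library that stands apart, was the lowest. The means were 29.5 ± 7.08 and 62.9 ± 16.2 CPM (SD, n = 5 each), and the log2 fold change was 1.09 ± 0.23 (SE), or 0.95 without wild-type rat 2.

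**Figure D1:**
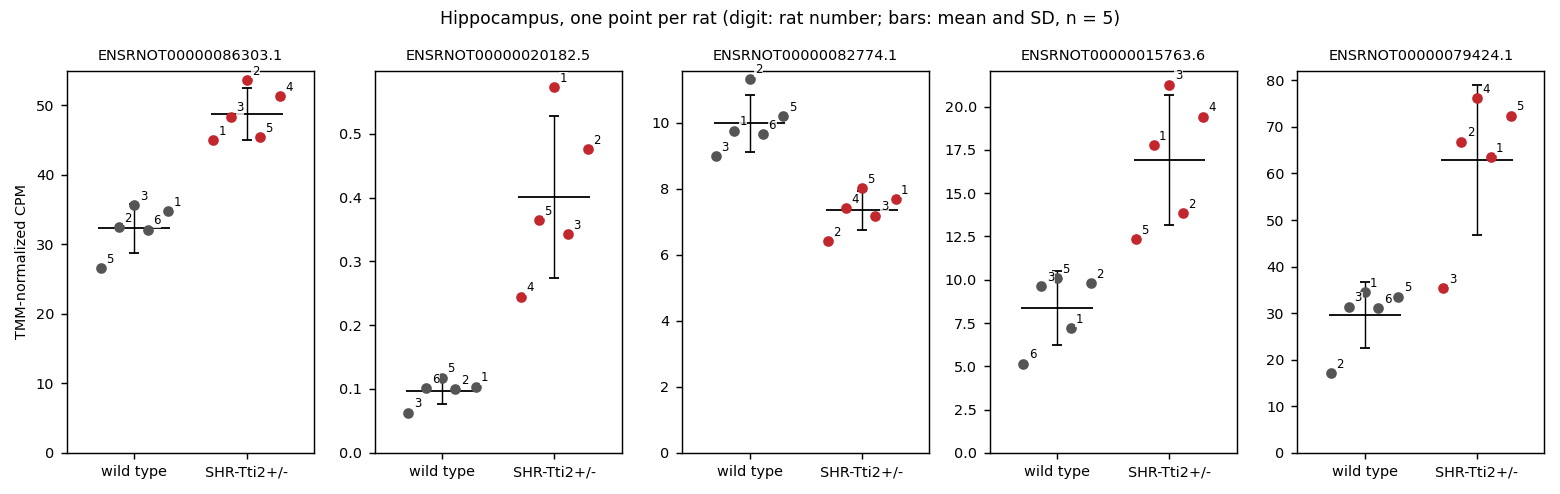
Level of each transcript in the hippocampus in TMM-normalized CPM (linear axes starting at 0), 1 point per rat with its rat number, grey for wild type and red for SHR-Tti2+/-. Horizontal lines are means and vertical bars SD (n = 5). The genotypes do not overlap in any panel, and the gap is narrowest for ENSRNOT00000079424.1, where heterozygous rat 3 (35.3 CPM) lies next to wild-type rat 1 (34.5 CPM).

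The rats at the extremes differed from transcript to transcript. Heterozygous rat 3, the lowest for ENSRNOT00000079424.1 at 0.78 log2 units below its genotype mean, was the highest for ENSRNOT00000015763.6 at 0.36 above it. Wild-type rat 2 was 0.74 below its genotype mean for ENSRNOT00000079424.1 and 0.27 above it for ENSRNOT00000015763.6. Covariation was examined on deviations from the genotype mean of log2 CPM over the 10 hippocampus samples, since 5 samples of 1 genotype are too few for a correlation of their own. Pearson's r of the 10 pairs ranged from -0.56 to 0.15, and 0 of 10 passed an adjusted p of 0.05 in exact permutation tests within genotype. The strongest pair was ENSRNOT00000086303.1 with ENSRNOT00000082774.1 (r = -0.56, exact two-sided permutation p = 0.116, adjusted p = 0.737; Spearman's rho = -0.66, exact permutation p = 0.0558, adjusted p = 0.558). Without the 2 samples farthest from the median deviation of ENSRNOT00000086303.1, the r of this pair was -0.64. Without wild-type rat 2 it was -0.74 (n = 9, exact permutation p = 0.0132, adjusted p = 0.132; rho = -0.78, exact permutation p = 0.0198, adjusted p = 0.198). Without that library the 10 values of r ranged from -0.74 to 0.20, with ENSRNOT00000082774.1 and ENSRNOT00000079424.1 moving from -0.29 to 0.20, and again 0 of 10 passed. The 4 transcripts that were higher in heterozygotes did not show a shared deviation among rats that was detectable with 10 samples.

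**Figure D2:**
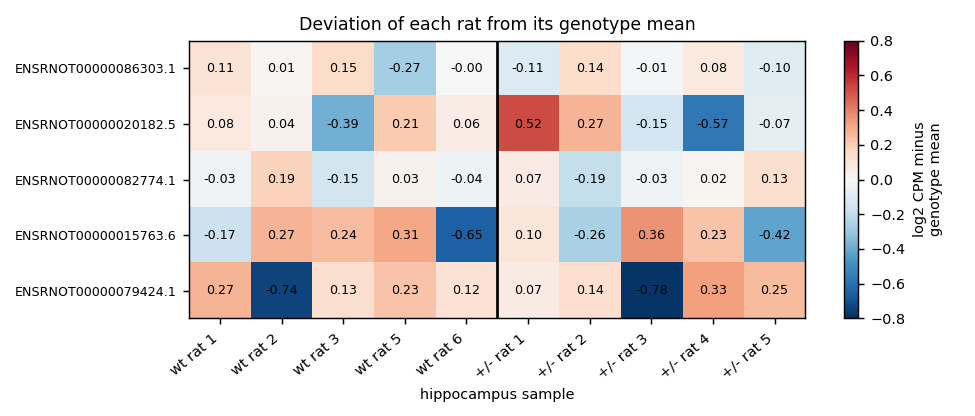
Deviation of each hippocampus sample from its genotype mean, in log2 CPM, for the 5 transcripts (rows) and 10 rats (columns, wild type left of the black line, SHR-Tti2+/- right). Colour and number give the same value. No column is low or high throughout, and the lowest values, -0.78 and -0.74, belong to ENSRNOT00000079424.1 in heterozygous rat 3 and wild-type rat 2.

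Outside the hippocampus, in libraries the choice of transcripts did not use, no genotype difference passed the criteria. With edgeR 0 of 3 transcripts that could be tested were called in the liver, where 0.207% of all tested transcripts were called. In the soleus muscle 0 of 4 were called against 0.00555%, and in the fat 0 of 4 against 0%. Of these 11 tests 0 had an unadjusted p under 0.05, which 10.2% of the tested transcripts had in the liver, 6.85% in the soleus muscle and 6.97% in the fat. DESeq2 and limma likewise called 0 of those tested in each of these tissues. The genotypes overlapped in all 11, where 2.57%, 1.3% and 1.32% of tested transcripts did not overlap in liver, soleus muscle and fat. The sign was that of the hippocampus in 5 of the 11 and the opposite in 6, and in 6 of the 11 it turned when some single rat was left out.

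ENSRNOT00000086303.1, higher in the heterozygous hippocampus, had negative log2 fold changes in the 3 other tissues, none of which passed the test, and those of soleus muscle and fat turned sign with single rats. Its liver levels were 29.3, 29.8, 51.4, 50.7 and 33.4 CPM in wild-type rats 1, 2, 4, 5 and 6, and 28.3, 30.7, 41.4, 32.4 and 33.4 CPM in heterozygous rats 1, 2, 4, 5 and 6. The log2 fold change was -0.23 ± 0.18 (SE, edgeR adjusted p = 0.742). It was -0.11 ± 0.27 in the soleus muscle (edgeR adjusted p = 0.952) and -0.09 ± 0.27 in the fat (edgeR adjusted p = 0.965), where the rats of 1 genotype spread from 49.2 to 110.4 CPM and from 20.5 to 56.3 CPM. In the soleus muscle it was 0.10 without wild-type rat 3 and 0.04 without heterozygous rat 5, and in the fat 0.10, 0.02 and 0.01 without wild-type rat 3, wild-type rat 4 and heterozygous rat 2.

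ENSRNOT00000020182.5 had the opposite sign in the liver, where it stayed under the filter. Wild-type rats 1, 2, 4, 5 and 6 had 0.406, 0.137, 0.238, 0.214 and 0.300 CPM, and heterozygous rats 1, 2, 4, 5 and 6 had 0.131, 0.0559, 0.192, 0.181 and 0.116 CPM. There 4 of the 5 wild-type rats were above all heterozygotes, and wild-type rat 2 lay among them. Summed over rats, 16.9 counts in heterozygotes stood against 34.6 in wild type, a depth-scaled ratio of 0.513 with an exact 95% interval of 0.276 to 0.97 that covers counting error only. With the filter lifted, edgeR gave a log2 fold change of -1.05 ± 0.48 (SE, unadjusted p = 0.0527, adjusted p = 0.583), which did not pass. In the soleus muscle the log2 fold change was -0.38 ± 0.48 (SE, edgeR adjusted p = 0.888) with values from 0.666 to 6.37 CPM over the 10 rats, and it was 0.05 without wild-type rat 6. In the fat it was 0.06 ± 0.38 (SE, edgeR adjusted p = 0.988), with a sign that turned in 3 of 10 fits with a rat left out.

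ENSRNOT00000082774.1 had a negative log2 fold change, as in the hippocampus, in the soleus muscle alone. Wild-type rats 2, 3, 4, 5 and 6 had 1.52, 1.69, 1.74, 3.34 and 4.69 CPM there, and heterozygous rats 2, 3, 4, 5 and 6 had 1.36, 2.65, 1.62, 1.53 and 1.31 CPM. Wild-type rats 5 and 6 were above all heterozygotes and the others overlapped, and the log2 fold change of -0.61 ± 0.35 (SE, edgeR adjusted p = 0.774) did not pass the test. It was -0.28 without wild-type rat 6 and -0.83 without heterozygous rat 3. In the liver, where this transcript varied least, wild-type rats had 4.49 to 5.55 CPM and heterozygotes 4.85 to 5.51 CPM, with a log2 fold change of 0.05 ± 0.087 (SE, edgeR adjusted p = 0.910). In the fat it was 0.15 ± 0.13 (SE, edgeR adjusted p = 0.849).

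ENSRNOT00000015763.6 had positive log2 fold changes in the 3 other tissues, none of which passed the test, and only that of the liver kept its sign whichever rat was left out. Its liver levels were 23.2, 20.1, 14.5, 23.1 and 28.4 CPM in wild-type rats 1, 2, 4, 5 and 6, and 27.6, 31.3, 20.1, 22.3 and 30.4 CPM in heterozygous rats 1, 2, 4, 5 and 6. The log2 fold change there was 0.27 ± 0.17 (SE, edgeR adjusted p = 0.663). It was 0.02 ± 0.23 in the soleus muscle (edgeR adjusted p = 0.993) and 0.01 ± 0.15 in the fat (edgeR adjusted p = 0.995), and turned sign in 4 and 5 of 10 fits with a rat left out. ENSRNOT00000079424.1 was near 0 in these tissues and could not be compared between genotypes there.

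**Figure D3:**
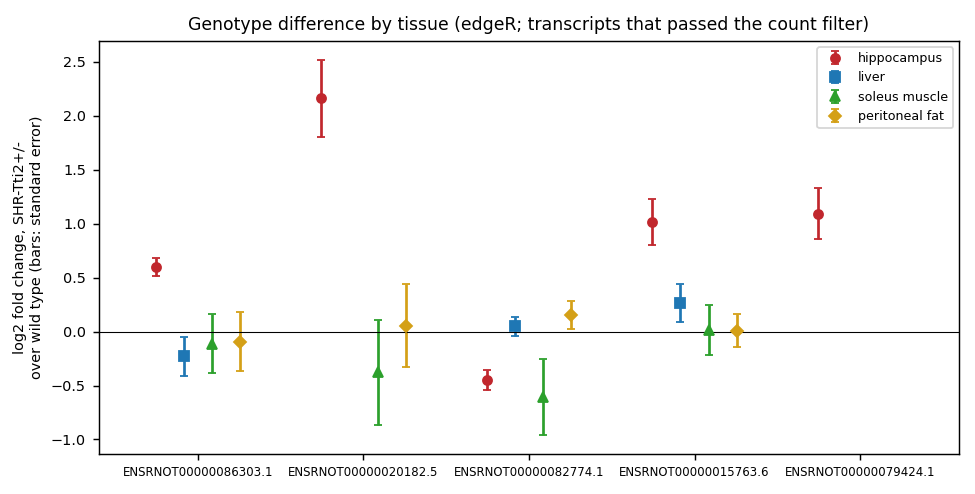
Log2 fold change of SHR-Tti2+/- over wild type for each transcript (horizontal axis) in each tissue (colour and symbol), from edgeR, with bars of 1 standard error. Transcripts that did not pass the count filter in a tissue have no point. The hippocampus points lie from -0.45 to 2.16 and belong to the contrast that chose the transcripts, and all other points lie from -0.61 to 0.27.

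Whether the genotype difference itself varied among liver, soleus muscle and fat was tested as an interaction. ENSRNOT00000079424.1 was near 0 in these tissues, which leaves 12 interactions of the other 4. With edgeR 0 of the 12 were called at an adjusted p under 0.1, against 0.367%, 0.128% and 0% of all tested transcripts for liver against soleus muscle, liver against fat and soleus muscle against fat. An unadjusted p under 0.05 was met by 2 of the 12, both of ENSRNOT00000082774.1 and both using its soleus muscle samples. The share of all tested transcripts under this limit was not computed, so nothing is read from the count. Its log2 fold change was higher in the liver than in the soleus muscle by 0.67 ± 0.29 (SE, edgeR adjusted p = 0.433), and it differed between soleus muscle and fat by -0.77 ± 0.29 (SE, edgeR adjusted p = 0.540). Interactions with the hippocampus were not tested, since that contrast chose the transcripts.

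The levels between tissues, averaged over both genotypes, were not used in the choice. Each hippocampus mean, however, pools the 2 genotypes whose difference was. Of 30 comparisons (6 pairs of tissues for each of the 5), 24 passed the same 2 criteria with edgeR. This fit, whose p-values are given below, treated samples of the same rat as independent. Of the 6 that did not pass, 3 were those of ENSRNOT00000079424.1 among liver, soleus muscle and fat, which could not show a difference, since it was near 0 in both tissues. Most transcripts of these data differed between tissues in this way. Hippocampus against liver had 4 of 5 called beside 72.8% of all tested transcripts, hippocampus against soleus muscle 5 of 5 beside 70.6%, and hippocampus against fat 4 of 5 beside 66.8%. Liver against soleus muscle had 4 of 5 beside 66.3%, liver against fat 3 of 5 beside 58.8%, and soleus muscle against fat 4 of 5 beside 64%. The direction of a tissue difference depends on the scale, because TPM is a share of each library whereas the TMM scaling of edgeR centres the bulk of the transcripts. From hippocampus to liver the median transcript differed by 1.16 log2 units in TPM and by -0.31 with TMM, and from hippocampus to soleus muscle by 1.28 and -0.43. Among the 24 called differences 4 had opposite signs on the 2 scales, and the sign in the orders below holds on both scales except where stated.

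ENSRNOT00000079424.1 was the most unequal between tissues. It had 21.7 ± 9.96 TPM in the hippocampus (SD, n = 10; 7.57 to 36.3), with 9741.9 estimated counts over the 10 libraries. Over 10 libraries each, 2 counts were found in the liver, in 1 library, 1 count in the soleus muscle, in 1 library, and 7.06 counts in the fat, in 3 libraries. Scaled by total counts, the hippocampus exceeded the liver 5790-fold (exact 95% interval 1600 to 47800). It exceeded the soleus muscle 11100-fold (1990 to 439000) and the fat 1560-fold (761 to 3900). These intervals cover counting error only, and the size of the ratios depends on the scale. With TMM the differences were 11.3 ± 0.44, 11.6 ± 0.46 and 10.2 ± 0.37 log2 units (SE, edgeR) in the same order. Differences among liver, soleus muscle and fat were not detectable at this depth.

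ENSRNOT00000020182.5 was highest in the soleus muscle. The order was 1.43 ± 0.879 TPM in the soleus muscle, 0.570 ± 0.208 in the fat, 0.172 ± 0.126 in the hippocampus and 0.103 ± 0.0548 in the liver (SD, n = 10 each), and the ranges of each pair of neighbours overlapped. All 6 tissue differences of this transcript were called by edgeR. The hippocampus was above the liver in TPM but below it by 1.05 ± 0.34 log2 units with TMM (SE, edgeR adjusted p = 0.00552). In TPM this step also differed by genotype. Wild-type rats had a mean of 0.0666 TPM in the hippocampus and 0.137 in the liver, and heterozygotes 0.2765 and 0.06855. The last step of the order is thus not fixed. Soleus muscle exceeded fat by 2.71 ± 0.29 log2 units with TMM (SE, edgeR adjusted p = 2.03e-10).

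ENSRNOT00000082774.1 was highest in the fat and lowest in the soleus muscle. It had 11.9 ± 1.89 TPM in the fat, 5.41 ± 0.918 in the hippocampus, 2.37 ± 0.197 in the liver and 0.961 ± 0.544 in the soleus muscle (SD, n = 10 each). The ranges of fat, hippocampus and liver did not overlap in TPM, whereas liver and soleus muscle did. With TMM the hippocampus lay below the liver by 0.34 ± 0.14 log2 units, which is under the fold change required, and the sign is thus reversed against TPM. Fat exceeded soleus muscle by 2.16 ± 0.15 log2 units, which the fit gives as -2.16 for soleus muscle minus fat (edgeR adjusted p = 8.35e-16).

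ENSRNOT00000015763.6 was also highest in the fat by TPM, with 29.2 ± 5.27 TPM there, 14.3 ± 3.28 in the liver, 9.68 ± 4.12 in the hippocampus and 4.74 ± 1.23 in the soleus muscle (SD, n = 10 each). Fat and liver did not overlap in TPM, but with TMM they differed by 0.11 ± 0.14 log2 units in favour of the liver (SE, edgeR adjusted p = 0.523). The hippocampus was above the soleus muscle in TPM and 0.87 log2 units below it with TMM (edgeR, -0.87 ± 0.15, adjusted p = 3.66e-06). ENSRNOT00000086303.1 had the smallest ratio of highest to lowest tissue mean in TPM (1.82), though not with TMM, where it was 4.24 against 4.05 for ENSRNOT00000015763.6. It had 22.8 ± 7.01 TPM in the soleus muscle, 18.6 ± 4.33 in the hippocampus, 14.7 ± 4.50 in the fat and 12.5 ± 2.87 in the liver (SD, n = 10 each), each overlapping its neighbour. The place of the hippocampus in this order differed by genotype. Wild-type rats had a mean of 14.75 TPM there, 14.97 in the fat and 23.97 in the soleus muscle. Heterozygotes had 22.42 TPM in the hippocampus, 14.36 in the fat and 21.7 in the soleus muscle. Its hippocampus and fat levels did not differ beyond their spread (0.01 ± 0.17 log2 units, SE, edgeR adjusted p = 0.976). The liver was lowest in TPM, but with TMM it exceeded both hippocampus and fat, by 0.95 ± 0.17 and 0.96 ± 0.17 log2 units, where the first is given by the fit as -0.95 for hippocampus minus liver.

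**Figure D4:**
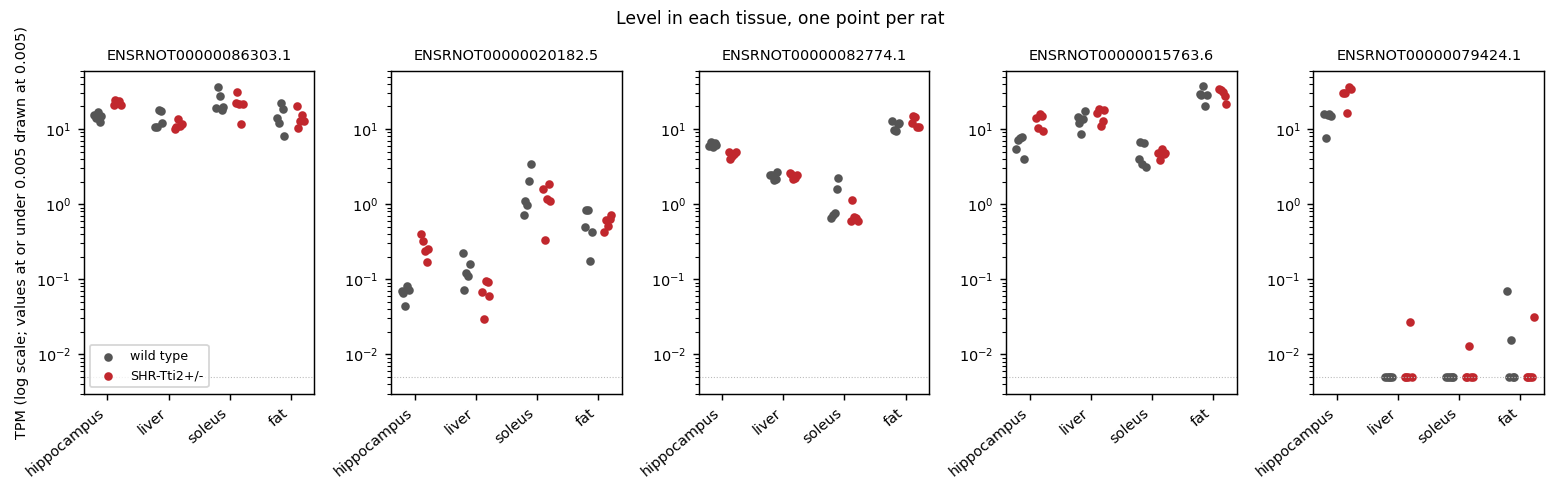
TPM of each transcript in the 4 tissues on a log axis, 1 point per rat, grey for wild type and red for SHR-Tti2+/- (5 rats each). Values at or under 0.005 TPM are drawn at 0.005 (dotted line). ENSRNOT00000079424.1 has 7.57 to 36.3 TPM in the hippocampus and values at or near 0 elsewhere, while the other 4 have reads in all 40 samples.

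Because tissues came from the same animals, it could be asked whether a rat with a high hippocampal level also had a high level elsewhere. Deviations from the genotype mean were compared over the 8 or 9 rats with both tissues sequenced, for the 11 transcript and tissue combinations above the filter. Pearson's r was positive in 5 of the 11 and ranged from -0.58 to 0.64, and 0 of 11 passed an adjusted p of 0.05. The highest was that of ENSRNOT00000086303.1 between hippocampus and soleus muscle (r = 0.64, n = 8, exact permutation p = 0.134, adjusted p = 0.439; rho = 0.71, exact permutation p = 0.0972, adjusted p = 0.367). It was 0.29 without the 2 rats whose hippocampal deviations lay farthest from the median. Leaving these out also narrows the range, so this does not show whether the relation rests on them. The lowest was that of ENSRNOT00000020182.5 between hippocampus and fat (r = -0.58, n = 9, exact permutation p = 0.0920, adjusted p = 0.439; rho = -0.63, exact permutation p = 0.0441, adjusted p = 0.367). Without the 2 farthest rats its r was -0.52, and with a prior count of 5 it was -0.50. The hippocampal values of this transcript are 1.21 to 11.7 estimated counts. Of its 5 wild-type values there, 4 lay under the floor of 3 counts. Without wild-type rat 2 these relations had r of 0.67 and -0.67, the highest and lowest of the 11, and 0 of 11 passed.

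The transcript most alike to each of the 5 was sought by Pearson's r of log2 CPM over all 40 samples, among 23411 others. Tissue differences set most of this likeness, since samples of a tissue share their source, and it is given as a description. For ENSRNOT00000086303.1 it was ENSRNOT00000011342.5, a model of 450 bases (r = 0.97), and after removal of the mean of each tissue and genotype r was still 0.81, with 0.96 within the soleus muscle, 0.92 within the fat, 0.65 within the hippocampus and 0.43 within the liver (n = 10 each). In the hippocampus ENSRNOT00000011342.5 had 5.97, 6.61, 8.03, 5.61 and 5.04 CPM in wild-type rats 1, 2, 3, 5 and 6 and 6.90, 10.3, 10.3, 10.2 and 8.16 CPM in heterozygous rats 1 to 5. The genotypes overlapped through heterozygous rat 1, and the log2 fold change was 0.55 ± 0.16 (SE), against 0.59 for ENSRNOT00000086303.1. The same hippocampus libraries entered the choice of both transcripts, so neither value supports the other.

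For ENSRNOT00000082774.1 the most alike was ENSRNOT00000049357.4 (r = 0.94, and 0.81 with tissue and genotype means removed). This likeness again came mainly from the fat (r = 0.93) and the soleus muscle (r = 0.87) and less from the hippocampus (r = 0.33) and the liver (r = 0.30). Its hippocampal log2 fold change was -0.03 ± 0.096 (SE). For ENSRNOT00000020182.5 it was ENSRNOT00000026860.4 (r = 0.92, and 0.36 with means removed), for ENSRNOT00000015763.6 it was ENSRNOT00000035463.5 (r = 0.92 and 0.41), and for ENSRNOT00000079424.1 it was ENSRNOT00000033700.4 (r = 0.99 and 0.46). Their hippocampal log2 fold changes were -0.21 ± 0.17, 0.47 ± 0.52 and 0.29 ± 0.19 (SE). ENSRNOT00000035463.5 had a low level there, 0.040 to 0.27 TPM. The 0.46 of ENSRNOT00000079424.1 also pools tissues where it was near 0, and within the hippocampus r was 0.65. For ENSRNOT00000079424.1 as many as 1014 transcripts had r above 0.95 over the 40 samples, which shows how little this likeness singles out for a transcript with nearly all of its reads in the hippocampus.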

How the data were processed

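Transcript abundance was measured by strand-specific, poly(A)-selected, single-end RNA sequencing. The authors quantified reads against the Ensembl cDNA set with kallisto (version 0.46.0 and genome build rn6 in the submitters' processing notes), using sequence bias correction. Per the methods of the study an outlying hippocampus sample was left out of its own analysis. Which one is not given in the sources used here, and all 10 were kept. The deposited values used were estimated counts (not whole, not normalized), TPM as computed by the authors (a share of each sample's transcripts, corrected for effective length), and the transcript and effective lengths in bases.

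Estimated counts were filtered (5 or more in no fewer than 47% of a tissue's samples), rounded to whole numbers, TMM-normalized and fitted per tissue with genotype as the term by edgeR 4.0.16 (R 4.3.3, quasi-likelihood F test). Benjamini-Hochberg adjustment ran over all tested transcripts, and a call required an adjusted p below 0.1 with at least a 1.5-fold difference. SE is the absolute log2 fold change divided by the root of F. Tissue pairs and interactions were fitted over all 40 samples by tissue and genotype, without a term for the animal. Their p-values thus treat samples of the same rat as independent. Correlations used log2 CPM (prior count 1) and exact permutations within genotype (scipy 1.17.1). DESeq2 1.42.0 and limma 3.58.1 were alternatives. Scripts were tested on simulated data.

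The transcripts, lists and tests were chosen with earlier results of these data known. Named are the 5 and, for each, the transcript with the highest r over 40 samples. No 2 samples of a group were alike within sampling noise. Equal rat numbers in the 2 genotypes do not pair samples. The correlation of same-numbered deviations ranged from -0.12 to 0.081 over 19 pairs. P-values of the genotype tests measure the spread between rats of 1 line.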

Additional observations from a re-analysis of the deposited data

Results flagged for a closer look

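In 3 of 35 groups of 5 rats examined, a single rat stood apart from the other 4 by Dixon's criterion (gap over range above 0.71), where chance gives about 1.75. ENSRNOT00000079424.1 had 17.1 CPM in the hippocampus of wild-type rat 2, while the other wild-type rats had 31.0 to 34.5 (gap over range 0.8). This is the deepest hippocampus library and the one farthest from the others, and its part in the value was not tested. ENSRNOT00000082774.1 had 2.65 CPM in the soleus muscle of heterozygous rat 3, while the others had 1.31 to 1.62 (0.771). ENSRNOT00000079424.1 had 0.167 CPM in the fat of wild-type rat 1, while the others had 0 to 0.0392 (0.765), which is a matter of 4.04 estimated counts.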

How the results depend on the processing

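In the hippocampus contrast, which chose the transcripts and so supports nothing, the number of the 5 called was 0 with edgeR, 3 with DESeq2, again 3 with DESeq2 without wild-type rat 2, and 1 (ENSRNOT00000020182.5) with edgeR's newer small-count adjustment, the last 2 being chosen after seeing the data. DESeq2 called ENSRNOT00000086303.1, ENSRNOT00000015763.6 and ENSRNOT00000079424.1, and gave ENSRNOT00000020182.5 no adjusted p. Over all transcripts DESeq2 called 11 where edgeR called 1 in the hippocampus, 120 against 38 in the liver, 40 against 1 in the soleus muscle and 20 against 0 in the fat. Limma called 2, 16, 1 and 0. In the hippocampus DESeq2 without wild-type rat 2 called 23 over all transcripts, and edgeR's newer small-count adjustment called 2. Other filters, the rat-number block and left-out rats moved the liver count between 11 and 64 and the soleus muscle count between 0 and 5. In liver, soleus muscle and fat 0 of those tested were called under every alternative run, and the range over left-out rats was 0 to 0. The hippocampal log2 fold changes kept their sign throughout. Leaving out 1 rat gave 0.53 to 0.63 for ENSRNOT00000086303.1, 0.88 to 1.11 for ENSRNOT00000015763.6, 0.95 to 1.24 for ENSRNOT00000079424.1, -0.48 to -0.40 for ENSRNOT00000082774.1, and 2.05 to 2.22 for ENSRNOT00000020182.5, which was tested in only 5 of 10 such fits, since leaving out any 1 heterozygote put it under the filter. Limma put the last at 1.79. Outside the hippocampus 18 of the fits with a rat left out turned the sign of an uncalled difference. The ranges were -0.29 to 0.10 (ENSRNOT00000086303.1), -0.58 to 0.051 (ENSRNOT00000020182.5) and -0.12 to 0.20 (ENSRNOT00000015763.6) in the soleus muscle, and -0.26 to 0.099, -0.16 to 0.27 and -0.079 to 0.13 in the fat in the same order. A replicate block on the rat number, which does not pair animals between genotypes (0 of 19 correlations above 0.1), left 0 of those tested called in each tissue, and called 11 transcripts in the liver and 0 in the other tissues. For tissue differences, where a number is the same animal, the block left 24 of 30 called and 0 interactions, as did median-of-ratios size factors. No correlation passed with a prior count of 5 or without wild-type rat 2. Depth limits mainly ENSRNOT00000020182.5 in hippocampus and liver and ENSRNOT00000079424.1 outside the hippocampus.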
